A study of Mus musculus with 26 samples.

Results

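The CaM kinases and calcineurin are the kinases and the phosphatase through which calmodulin acts in neurons. Their transcripts were chosen by gene symbol from a list of 10, and 7 of the 10 were listed in each of 3 deposited tables. The tables of the transgenic mice hold 8576 transcripts each, and that of LRRK2 KO mice holds 9561. The 7 are *Camk2b*, *Camk2g*, *Camkk1*, *Camk4*, *Ppp3ca*, *Ppp3cb* and *Ppp3r1*. *Camk2a*, *Camk2d* and *Camkk2* were not listed and were not analysed here.

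The study measured ribosome footprints and total RNA in the striatum of LRRK2 mouse models, and each table sets one genotype against its control. In footprinting, the mRNA fragments that ribosomes protect from nuclease are sequenced, and here the reads in the coding sequence (CDS) were counted. The question was how mutant, kinase-dead or absent LRRK2 alters translation in the brain. The series holds 26 libraries, all from C57BL/6 mice aged 3 months, and all from striatum but for 1 footprinting library each of WT and LRRK2 KO ventral midbrain. GS LRRK2 TG mice carried a G2019S LRRK2 transgene and GS/DA LRRK2 TG mice a kinase-dead G2019S/D1994A LRRK2 transgene. Both transgenes were driven by CaMKII-tTA in a Tet-off system, with doxycycline withdrawn after weaning, so expression was limited to cells in which that promoter is active. Their controls were non-transgenic (non-TG) littermates, labelled wild-type. LRRK2 KO mice, which lack *Lrrk2*, were compared with wild-type (WT) mice. Each library came from a pool of mice of mixed sex. Non-TG control mice gave 3 footprinting and 3 RNA-Seq libraries, and each transgenic group gave 2 and 2. WT and LRRK2 KO striatum gave 3 footprinting and 2 RNA-Seq libraries each. Both transgenic tables take their controls from the same labelled group, and which of its libraries went into each mean is not given. Each table was normalized on its own, so their values are set side by side and not compared.

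Calcium that enters a neuron binds calmodulin, and calcium-calmodulin switches on both the CaM kinases and calcineurin, which act on partly shared substrates in opposite directions. CaMKII is abundant at excitatory synapses and is known for its part in synaptic potentiation, while calcineurin is known for its part in synaptic depression. In striatal spiny neurons calcineurin also removes a phosphate from DARPP-32, the product of *Ppp1r1b*.

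Within the family, *Camk2b* (uc007hxq.2, chr11:5869647-5966365 of mm9, minus strand) and *Camk2g* (uc007skt.1, chr14:21554097-21613310, minus strand) encode the beta and gamma subunits of CaMKII. The beta subunit also binds actin. *Camkk1* (uc007jzt.1, chr11:72832510-72855575, plus strand) encodes an upstream kinase that phosphorylates other CaM kinases. *Camk4* (uc008ejq.2, chr18:33098695-33355421, plus strand) encodes CaMKIV, a largely nuclear kinase that phosphorylates CREB. *Ppp3ca* (uc008rmg.1, chr3:136333088-136600691, plus strand) and *Ppp3cb* (uc007sjx.2, chr14:21318586-21365795, minus strand) encode catalytic A subunits of calcineurin. *Ppp3r1* (uc007ibz.1, chr11:17059266-17100378, plus strand) encodes the calcium-binding regulatory B subunit, without which the A subunit has little activity.

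The genotype labels were checked on *Lrrk2* (uc007xhz.1, chr15:91503606-91646551, plus strand). The deposited group mean of *Lrrk2* footprints was 2524 normalized reads in non-TG control and 5186 in GS LRRK2 TG mice. In the GS/DA LRRK2 TG table these means were 1335 and 6017, and in the LRRK2 KO table they were 545.2 in WT and 125.8 in LRRK2 KO. *Lrrk2* footprints were thus higher in both transgenic groups and lower in LRRK2 KO mice, as labelled. *Lrrk2* RNA-Seq means were 1006 in WT and 346.6 in LRRK2 KO, but 2105 in control and 1882 in GS LRRK2 TG, and 2897 in control and 2721 in GS/DA LRRK2 TG mice. Among transgenic mice the label therefore showed in footprints and not in RNA-Seq. The tissue was checked on markers of spiny projection neurons, of which 10 of 11 were listed in every table, with *Ppp1r1b* the most abundant. Its RNA-Seq mean was 39026 normalized reads in non-TG control mice of the GS LRRK2 TG table and 14353 in WT.

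Single libraries could be recovered from 10 of the 12 columns of means, since a mean of 2 libraries, each divided by its size factor, can be taken apart into whole reads. The non-TG control means of the GS LRRK2 TG table could not be taken apart. The recovered libraries held between 2862310 and 19761024 reads for footprinting, and between 3152653 and 14546606 for RNA-Seq. They are called the deeper and the shallower library of their group and assay, because a mean carries no replicate number. Footprinting libraries of a group were close in the transgenic tables, where the median size of their log2 difference over all transcripts was 0.16 in non-TG control, 0.21 in GS LRRK2 TG and 0.18 in GS/DA LRRK2 TG mice. RNA-Seq libraries of these groups stood far apart, with 0.98, 1.18 and 1.18. In the LRRK2 KO table the sizes were 0.41 in WT and 0.33 in LRRK2 KO for footprinting, and 0.41 and 0.35 for RNA-Seq. For *Lrrk2* itself the 2 GS LRRK2 TG libraries of RNA-Seq gave 3550 and 214.2 normalized reads. The spread of the control libraries behind the GS LRRK2 TG table was not measured, and some members, such as *Camk2g*, were closer between libraries than the median transcript.

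Per kb of CDS, the calcineurin subunits *Ppp3r1* and *Ppp3ca* were the members most densely covered by footprints. In WT striatum the order of footprinting means was *Ppp3r1* at 11098 normalized reads per kb, *Ppp3ca* at 9789, *Camk2b* at 3914, *Camk4* at 1742, *Ppp3cb* at 969.1, *Camk2g* at 647.0 and *Camkk1* at 249.5. Between the 2 WT libraries, *Ppp3r1* ranged from 8531 to 13665 and *Ppp3ca* from 8568 to 11010, so their order was not larger than the spread. *Ppp3cb*, at 690.6 and 1248, likewise overlapped *Camk2g*, at 591.3 and 702.7. The remaining neighbours did not overlap in WT, with *Camk2b* at 3871 and 3957, *Camk4* at 1463 and 2021, and *Camkk1* at 204.0 and 295.0. The same order of footprinting means held in the non-TG controls of both transgenic tables, from *Ppp3r1* at 30348 and 41620 to *Camkk1* at 805.6 and 1063 per kb.

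By RNA-Seq, *Camk4* took a lower place among the members. In WT the means per kb were 9707 for *Ppp3ca*, 7887 for *Ppp3r1*, 4209 for *Camk2b*, 1302 for *Ppp3cb*, 1282 for *Camk4*, 659.4 for *Camk2g* and 319.1 for *Camkk1*. *Ppp3ca* libraries, at 8441 and 10972, overlapped those of *Ppp3r1*, at 5456 and 10318, and *Ppp3cb*, at 1398 and 1206, overlapped *Camk4*, at 1064 and 1500. In non-TG control mice the *Camk4* RNA-Seq mean was 1050 per kb in the GS LRRK2 TG table, and 1331 in that of GS/DA LRRK2 TG, below *Ppp3cb* at 2101 and 2506. The median transcript had 188.0 RNA-Seq reads per kb in WT, and 445.8 and 485.4 in the 2 control columns of the transgenic tables, so each member was above it.

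Translation efficiency (TE) is the log2 of the footprinting mean over the RNA-Seq mean of a group. TE was above the table's median in the control group for 7 of 7 members in each table. In non-TG control mice *Camk4* had the highest TE of the family, 1.93 in the GS LRRK2 TG table, and 1.98 in that of GS/DA LRRK2 TG, where the medians of all transcripts were -0.17 and 0.04. *Ppp3r1* followed with 1.53 and 1.72, and *Ppp3ca* with 1.51 and 1.73. Over each footprinting library with each RNA-Seq library of the GS/DA LRRK2 TG controls, *Camk4* ran from 1.52 to 2.62, so its place above the other 2 was not larger than the spread. These 3 transcripts, a nuclear kinase and the main A and B subunits, were between the 98.6 and 99.6 percentiles of TE in non-TG control mice. *Camk2b* (0.39 and 0.68), *Camk2g* (0.36 and 0.51), *Ppp3cb* (0.27 and 0.42) and *Camkk1* (0.04 and 0.32) lay closer to the medians. In WT mice, where the median TE was -0.64, *Ppp3r1* led with 0.49, followed by *Camk4* with 0.44 and *Ppp3ca* with 0.01. *Ppp3cb*, the other A subunit, was at -0.43. Over the same combinations in WT, TE ran from -0.27 to 1.32 for *Ppp3r1*, from -0.04 to 0.93 for *Camk4*, from -0.36 to 0.38 for *Ppp3ca* and from -1.02 to 0.05 for *Ppp3cb*, so in WT their order was not larger than the spread. The 2 A subunits did not overlap in LRRK2 KO (0.16 to 0.28 for *Ppp3ca*, -0.63 to -0.05 for *Ppp3cb*), GS LRRK2 TG (1.47 to 2.19, -0.26 to 1.16) or GS/DA LRRK2 TG mice (1.21 to 2.09, -0.22 to 1.01).

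**Figure D1:**
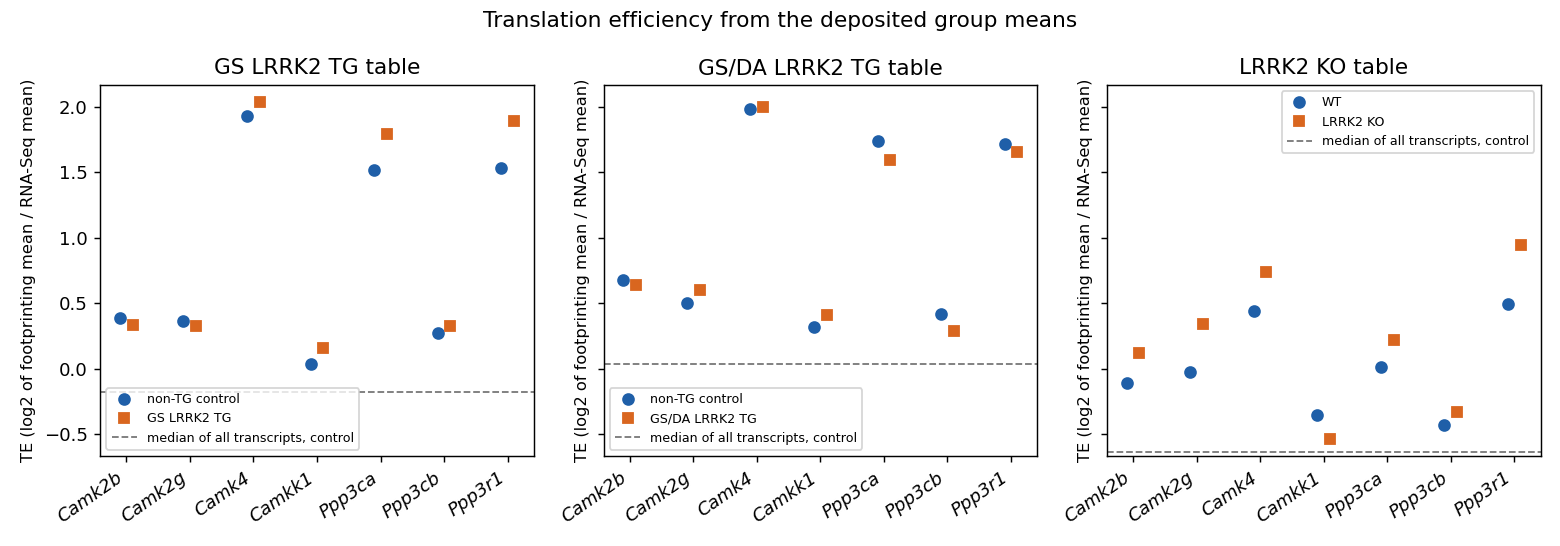
TE of the 7 members, as the log2 of the footprinting mean over the RNA-Seq mean (y axis), by transcript (x axis), in the 3 tables. Circles are controls, squares the LRRK2 genotype, and the dashed line is the median TE of all transcripts in the control. *Camk4*, *Ppp3ca* and *Ppp3r1* sit at 1.51 or higher in non-TG control mice, above the other members.

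Calcineurin works as a dimer of an A with a B subunit, so the summed coverage of *Ppp3ca*, *Ppp3cb* and *Ppp3cc*, another A subunit that the tables list, was set against that of *Ppp3r1*, per kb. By footprints the A to B ratio was between 0.957 and 1.02 in the 6 group means. By RNA-Seq it was between 1.13 and 1.66. Footprints on A and B transcripts were thus nearer to parity than the RNA in each group. In WT the libraries gave ratios of 1.09 and 0.900 by footprints and of 1.82 and 1.18 by RNA-Seq. In LRRK2 KO they gave 0.958 and 0.955 by footprints and 1.99 and 1.41 by RNA-Seq. The assays did not overlap in these 2 groups, while in GS LRRK2 TG, with 1.15 and 0.862 by footprints and 1.33 and 1.13 by RNA-Seq, they did. *Ppp3ca* accounted for 90.2% to 91.7% of A subunit footprints per kb in the group means, and for 77.1% to 87.5% of A subunit RNA. In single libraries these shares ran from 89.1% to 92.2% by footprints and from 74.9% to 89.7% by RNA-Seq, which overlapped.

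**Figure D2:**
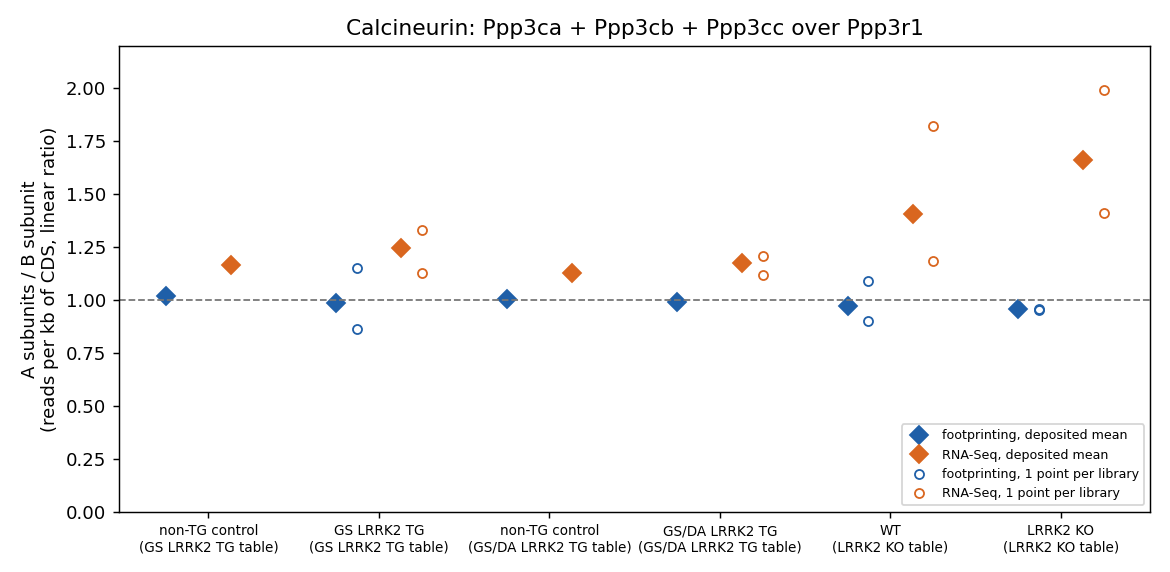
Ratio of the calcineurin A subunit transcripts to the B subunit transcript (y axis, linear, reads per kb of CDS) in the 6 group means (x axis), for footprinting and RNA-Seq. Filled points are group means, open points single libraries where all the transcripts were recovered, and the dashed line marks equal coverage. Footprinting means lie between 0.957 and 1.02, RNA-Seq means between 1.13 and 1.66.

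*Camk2b* had between 6.05 and 10.7 times the footprints per kb of *Camk2g* in the group means, and between 6.38 and 9.63 times its RNA. In the 2 GS LRRK2 TG libraries this ratio was 10.5 and 7.26 by footprints and 6.04 and 11.8 by RNA-Seq, so by RNA the libraries of one group spanned more than the group means. *Camk4* had between 4.25 and 7.05 times the footprints per kb of *Camkk1*, and between 1.2 and 4.02 times its RNA. In single libraries the *Camk4* to *Camkk1* ratio ran from 3.15 to 10.2 by footprints and from 0.637 to 4.71 by RNA-Seq, a wider span than that of the means.

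In GS LRRK2 TG mice, RNA of both main calcineurin subunits was below the control mean, and more so in the shallower library. *Ppp3ca* RNA-Seq was 14677 normalized reads in the deeper and 9218 in the shallower transgenic library, against a control mean of 15505. *Ppp3r1* RNA-Seq was 4813 and 3291, against 5345. Both transgenic libraries were thus below the control mean for either subunit. *Ppp3ca* footprints were 41998 and 40569, against 44306, and *Ppp3r1* footprints were 13004 and 17067, against 15478. For *Ppp3ca* both libraries were again below the control mean, and for *Ppp3r1* they lay on either side of it. The spread of the control libraries is not known here. In a tissue, fewer cells that make a transcript and less of it per cell cannot be told apart.

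The log2 change of the group means was -0.38 for *Ppp3ca* RNA and -0.40 for *Ppp3r1* RNA, and -0.10 and -0.04 for their footprints. The TE differences, genotype minus control, were 0.27 and 0.36. The z score of a TE difference, its distance from the mean of all transcripts in SDs, was 1.03 for *Ppp3ca* and 1.42 for *Ppp3r1*. Of the 7 members 0 were past a z of 1.5 in size, where 11.9% of all transcripts were. Both libraries were on the same side of the control mean for 2 of 7 members in footprinting, *Camk2b* and *Ppp3ca*, and for 2 of 7 in RNA-Seq, *Ppp3ca* and *Ppp3r1*, all below. The same held for 40.4% of all transcripts in footprinting and 13.7% in RNA-Seq. With 1 transgenic library per assay in place of the mean, the TE difference of *Ppp3r1* ran from -0.10 to 0.84 and that of *Ppp3ca* from -0.05 to 0.67. With the GC content of the CDS corrected, which also centres the values near 0, the TE differences were 0.12 for *Ppp3r1* (z of 0.57) and 0.16 for *Ppp3ca* (z of 0.81). Centring alone gave 0.34 and 0.25.

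Among the kinases of GS LRRK2 TG mice, log2 changes of the group means ran from -0.12 for *Camk4* to 0.07 for *Camk2g* in footprints, and from -0.23 to 0.11 for the same 2 transcripts in RNA. *Camk2b* footprints were 22849 and 20317 normalized reads in the transgenic libraries, against a control mean of 23119, and its RNA-Seq values of 12976 and 21261 lay on either side of 17671. *Camk4* footprints were 5627 and 4744, against 5623, and its RNA-Seq values were 1760 and 767.3, against 1477. *Camk2g* footprints were 1693 and 2184, against 1842, and *Camkk1* footprints were 894.9 and 1623, against 1221. None of these 4 kinases had both libraries of both assays on the same side of the control. TE differences were -0.05 for *Camk2b*, -0.04 for *Camk2g*, 0.11 for *Camk4* and 0.12 for *Camkk1*, and 0.05 for the phosphatase subunit *Ppp3cb*. Centring brought *Camk2b* to -0.07 and *Ppp3cb* to 0.03, and the GC correction to 0.01 and -0.17. The median over the members was 0.11, and over all transcripts 0.02. Markers of cortical excitatory neurons, of which 5 of 10 were listed with *Slc17a7* the most abundant, had a summed RNA-Seq level of 2971 in control and 2120 in GS LRRK2 TG mice, and 3178 and 1061 in the 2 transgenic libraries. Their summed footprints were 4133 and 3749, and 2476 and 5021 in the 2 transgenic libraries, on either side of the control. Spiny neuron markers summed to 105370 and 97304 in RNA-Seq and to 105903 and 97654 in footprinting, where the 2 transgenic libraries, 116042 and 79267, lay on either side of the control. Oligodendrocyte markers, 7 of 7 listed, had a summed RNA-Seq level of 30686.5 in control. They summed to 16698 in the deeper and 49768 in the shallower transgenic library, the one with less *Ppp3ca* and *Ppp3r1* RNA. Footprinting means of these markers were higher in GS LRRK2 TG mice for 7 of 7 genes, with a log2 change of 0.16 in the sum. The part of these marker lists in the values of *Ppp3ca* and *Ppp3r1* was not tested.

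In GS/DA LRRK2 TG mice, *Camk2g* was higher than control in both libraries of both assays, and *Camk4* footprints were lower. *Camk2g* footprints were 2262 and 2038 normalized reads in the non-TG control libraries and 2614 and 2611 in the transgenic ones. *Camk2g* RNA-Seq was 1558 and 1471 in control, and 1862 and 1581 in GS/DA LRRK2 TG mice. In neither assay did the libraries of the groups overlap. *Camk4* footprints were 7204 and 7574 in control and 6300 and 6775 in transgenic libraries, again without overlap. *Camk4* RNA-Seq was 2510 and 1235 in control and 899.3 and 2382 in transgenic libraries, which overlapped widely. RNA-Seq libraries of this table matched by their values, the deeper of one group with the shallower of the other, and *Camk4* was lower in the transgenic library of both matches (2510 and 2382, 1235 and 899.3). *Camkk1* and *Ppp3cb* overlapped in both assays, and *Ppp3r1* in RNA-Seq.

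In footprinting, 2 of the 4 members with a single solution for all libraries did not overlap, where 24.2% of all transcripts did not. In RNA-Seq it was 1 of 5, where 3.37% did not. The means of *Camk2b*, *Ppp3ca* and *Ppp3r1* in this table could be taken apart in 2 ways in at least 1 assay. *Ppp3ca* footprints did not overlap in either way, with 59702 and 60361 or 55896 and 64168 normalized reads in control against 50861 and 53580 in transgenic libraries. It is not in the count or in the share. The log2 change of *Camk2g* footprints was 0.28 (SE 0.12, 95% interval -0.01 to 0.58), and limma, a linear model that pools the variance over transcripts, gave it an adjusted p of 1.00 by the Benjamini-Hochberg method, or 0.208 with a block for library pairs. For *Camk4* footprints the change was -0.18 (SE 0.12, 95% interval -0.47 to 0.11), with a limma Benjamini-Hochberg adjusted p of 1.00, or 0.338 with the block. The change of *Camk2g* RNA was 0.18 (SE 0.46), with a limma Benjamini-Hochberg adjusted p of 1.00.

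These tests compare libraries, each a pool of mice. At an adjusted p under 0.05, limma called 0 of 8443 transcripts (0%) for footprinting in this table, while 155 (1.84%) had an unadjusted p under 0.05. It called 0 of 8517 (0%) for RNA-Seq and 0 of 8421 (0%) for TE, tested as the interaction of genotype and assay, with 0 (0%) under the unadjusted threshold in either. Of the members tested, 0 of 4, 0 of 5 and 0 of 4 had an unadjusted p under 0.05. With the block for library pairs, limma gave an unadjusted p under that threshold to 14.0%, 1.61% and 0.404% of transcripts in the 3 tests, and to 2 of 4 members for footprinting, *Camk2g* and *Camk4*, and 0 for the others. The pairs were read from the same values. *Lrrk2* footprints, the label check, gave a log2 change of 2.14 (SE 0.22) and the smallest limma adjusted p of the footprinting test, 0.872, or 0.00235 with the block for library pairs.

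The remaining members of GS/DA LRRK2 TG mice had lower footprinting means than control in 4 of 5 cases. *Camk2b* means were 29606 normalized reads in control and 27626 in GS/DA LRRK2 TG mice. *Ppp3ca* means were 60032 and 52221, *Ppp3cb* means 5673 and 5285, and *Ppp3r1* means 21226 and 18830. *Camkk1* means were 1610 and 1657. The log2 changes of footprints ran from -0.20 for *Ppp3ca* to 0.28 for *Camk2g* over the family, with a median of -0.10, against -0.01 over all transcripts. TE differences were -0.14 for *Ppp3ca*, -0.13 for *Ppp3cb* and -0.06 for *Ppp3r1*, and -0.03 for *Camk2b*, 0.10 for *Camk2g*, 0.01 for *Camk4* and 0.09 for *Camkk1*. Centred on the median of all transcripts, they were -0.08 for *Ppp3ca*, -0.07 for *Ppp3cb*, -0.01 for *Ppp3r1* and 0.02 for *Camk2b*. With GC content corrected as well, *Ppp3cb* (0.09) and *Ppp3r1* (0.22, z of 1.41) took the other sign, while *Ppp3ca* (-0.08) and *Camk2b* (0.01) stayed near their centred values. Past a z of 1.5 in size were 0 of 7 members and 11.0% of all transcripts.

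Marker levels differed with this genotype as well. Cortical excitatory markers, 5 of 10 listed, summed to 4517 and 4175 in the control footprinting libraries and to 7855 and 5973 in the transgenic ones. Their RNA-Seq sums were 2758 and 2616 in control, and 4563 and 5205 in GS/DA LRRK2 TG libraries. *Slc17a7*, their most abundant gene, had a log2 change of 1.30 in footprints and 1.17 in RNA. Spiny neuron markers went the other way, with summed footprinting means of 142023 in control and 114172 in transgenic mice, a log2 change of -0.31. Footprinting means were lower in the transgenic group for 10 of these 10 markers. The part of either marker list in the values of the members was not tested.

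In LRRK2 KO mice, *Ppp3r1* RNA was lower than in WT in the group means while its footprints were not. *Ppp3r1* RNA-Seq was 2783 normalized reads in the deeper and 5262 in the shallower WT library, and 2617 and 3443 in the LRRK2 KO libraries. *Ppp3r1* footprints were 4351 and 6969 in WT and 5704 and 5985 in LRRK2 KO libraries. The groups overlapped in both assays, and the WT libraries were farther apart than the group means. The TE of *Ppp3r1* was 0.49 in WT and 0.95 in LRRK2 KO, a difference of 0.46 with a z of 1.60. It was the member past a z of 1.5 in size, 1 of 7, where 12.3% of all transcripts were. With the GC content of the CDS corrected its z was 1.22. Libraries of the genotypes were also matched, deeper with deeper and shallower with shallower, and each footprinting match was combined with each RNA-Seq match. In these combinations the TE difference of *Ppp3r1* ran from -0.13 to 1.00, was positive in 3 of 4 and was past the cutoff in 1 of 4.

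**Figure D3:**
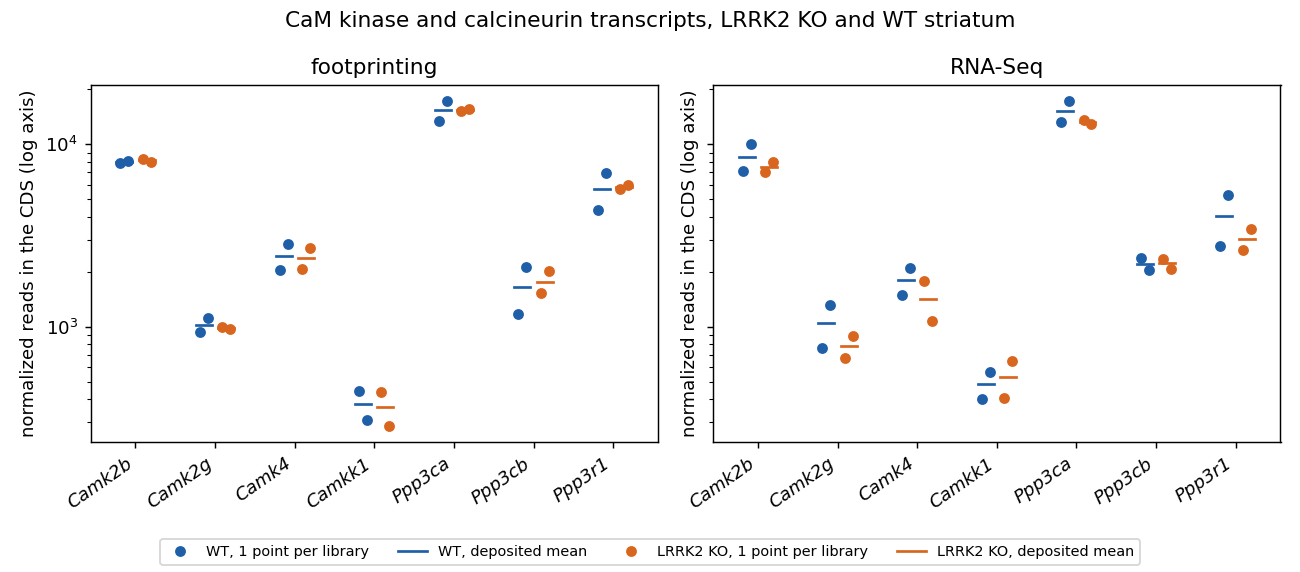
Normalized CDS reads (y axis, log scale) of the 7 members (x axis) in WT and LRRK2 KO striatum, for footprinting on the left and RNA-Seq on the right. Points are the 2 recovered libraries of each group and bars are group means. The groups overlap for 7 of 7 members in both assays.

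The 4 combinations reuse 2 differences in footprinting and 2 in RNA-Seq. The TE difference kept 1 sign in all of them for 3 of 7 members, *Camk2b* and *Camk2g* above 0 and *Camkk1* below, and for 23.9% of all transcripts. *Camk2g* RNA-Seq was 769.1 and 1324 normalized reads in WT, and 671.1 and 889.5 in LRRK2 KO libraries. *Camk2g* footprints were 938.4 and 1115 in WT and 1002 and 975.0 in LRRK2 KO. Its footprints were thus close between the genotypes, while its RNA-Seq values were lower in LRRK2 KO in both the deeper and the shallower library. The TE difference of *Camk2g* was 0.37, with 0.00 to 0.67 over 4 of 4 library combinations. *Camk2b* footprints were 7873 and 8049 in WT and 8345 and 8032 in LRRK2 KO, and *Camk2b* RNA-Seq was 7122 and 9999.6 in WT and 7018 and 8037 in LRRK2 KO. Its TE difference was 0.23, with 0.02 to 0.40 over 4 of 4 combinations.

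The cascade kinases had TE differences of opposite sign in the group means, but their ranges over the library combinations overlapped. *Camkk1* had a TE difference of -0.18, below 0 in 4 of 4 library combinations (-0.31 to -0.03). *Camkk1* footprints were 447.0 and 309.1 normalized reads in WT and 441.6 and 286.8 in LRRK2 KO, and its RNA-Seq values were 401.4 and 565.4 in WT and 405.5 and 651.2 in LRRK2 KO. *Camk4* had a TE difference of 0.30, with a range over the library combinations of -0.32 to 0.97. *Camk4* RNA-Seq was 1496 and 2111 in WT and 1775 and 1077 in LRRK2 KO, while its footprints were 2059 and 2843, and 2063 and 2705. The footprints of *Camk4* were thus close between the matched libraries of the genotypes, and its RNA was not. The A subunits had TE differences of 0.21 for *Ppp3ca* and 0.10 for *Ppp3cb*, or 0.13 and -0.03 with GC content corrected. *Ppp3ca* footprints were 13391 and 17208 in WT and 15296 and 15612 in LRRK2 KO, and its RNA-Seq values were 13194 and 17149, and 13647 and 12862. *Ppp3cb* footprints were 1172 and 2117 in WT and 1526 and 2010 in LRRK2 KO, and its RNA-Seq values were 2373 and 2047, and 2361 and 2083. Neither A subunit was apart between the genotypes in either assay.

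**Figure D4:**
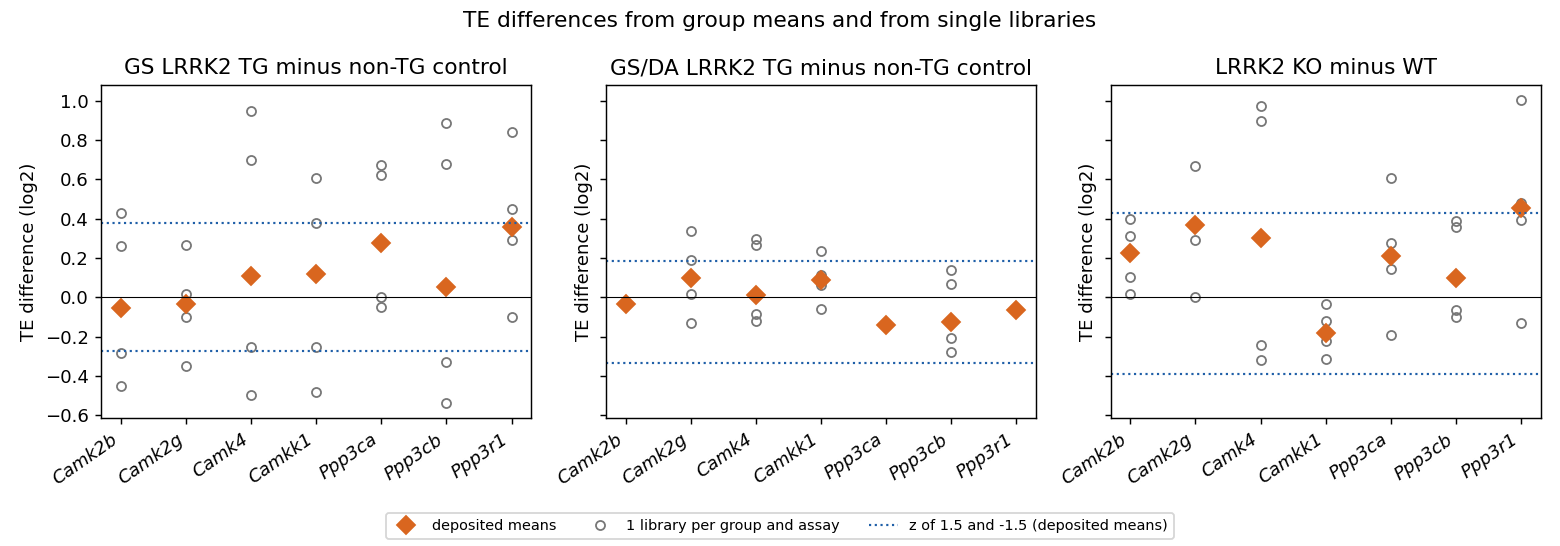
TE difference, genotype minus control on the log2 scale (y axis), of the 7 members (x axis) in the 3 comparisons. Diamonds come from group means, open circles from 1 library per group and assay (for GS LRRK2 TG, against the control mean), and dotted lines mark z of 1.5 and -1.5. In LRRK2 KO mice *Camk2b* and *Camk2g* are above 0 and *Camkk1* is below 0 in 4 of 4 combinations, where 23.9% of all transcripts keep 1 sign.

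Over the family in LRRK2 KO mice, 6 of 7 TE differences were above 0, with a median of 0.23 against 0.02 for all transcripts. Log2 changes of RNA were below 0 for 5 of 7 members, with a median of -0.19 against 0.01 for all transcripts. Those of footprints ran from -0.06 to 0.10, where the median of all transcripts was 0.02. Libraries of the genotypes overlapped for 7 of 7 members in both assays, and did not overlap for 12.6% of all transcripts in footprinting and 14.0% in RNA-Seq. For *Ppp3r1* the fitted TE difference was 0.43 (SE 0.53, 95% interval -0.83 to 1.69), with a limma Benjamini-Hochberg adjusted p of 1.00, also with the block for library pairs. Its RNA change was -0.35 (SE 0.39), with a limma Benjamini-Hochberg adjusted p of 1.00. At an adjusted p under 0.05, limma called 0 of 9540 transcripts (0%) for footprinting, 0 of 9555 (0%) for RNA-Seq and 0 of 9539 (0%) for TE. Unadjusted p-values under 0.05 were found for 16 (0.168%), 7 (0.0733%) and 4 (0.0419%), and for 0 of 7 members in each test. With the block, limma gave such unadjusted p-values to 3.16%, 4.15% and 1.95% of transcripts and again to 0 of 7 members. For footprinting and RNA-Seq of this table the fit with the block gave every transcript the same variance, so it does not rest on the spread of single transcripts. *Lrrk2* footprints had a fitted log2 change of -2.00 (SE 0.37), with a limma Benjamini-Hochberg adjusted p of 1.00, or 3.95e-22 with the block. The latter value comes from the fit that gave every transcript the same variance.

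Cortical excitatory markers, 9 of 10 listed in the LRRK2 KO table, had lower RNA-Seq means in LRRK2 KO than in WT for 9 of 9 genes. They summed to 3685 and 7038 in the deeper and shallower WT libraries and to 3145 and 5226 in the LRRK2 KO libraries. *Ppp3r1* and *Camk2g* RNA was likewise higher in the shallower library of both genotypes. The summed footprints of the list were 4815 and 4092 in WT and 4047 and 4402 in LRRK2 KO. Spiny neuron markers summed to 37177 and 52321 in WT RNA-Seq and to 39138 and 54840 in LRRK2 KO. Astrocyte markers, 6 of 6 listed with *Slc1a2* the most abundant, had RNA-Seq sums of 4415 and 6810 in WT and 4208 and 4367 in LRRK2 KO, a log2 change of -0.39 in the means. Microglia markers, 6 of 7 listed with *Csf1r* the most abundant, had 471.6 and 1100 in WT and 493.8 and 1477 in LRRK2 KO, a log2 change of 0.33. Both lists were also higher in the shallower library of either genotype. Oligodendrocyte markers, 7 of 7 listed, were lower there, with RNA-Seq sums of 40726 and 21778 in WT and 38733 and 20190 in LRRK2 KO. The part of these lists in the RNA of *Ppp3r1* and *Camk2g* was not tested.

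Other genes of the pathway, 70 in all (kinases, inhibitors, phosphatases, buffers, anchors, scaffold partners and targets), were chosen from what is known of the signalling. Of these 49 were listed in each transgenic table and 52 in the LRRK2 KO table. In GS LRRK2 TG mice 2 were past a z of 1.5 upward and 1 downward, in GS/DA LRRK2 TG mice 1 and 1, and in LRRK2 KO mice 3 and 3, where 11.9%, 11.0% and 12.3% of all transcripts were past it in either direction. Their median TE differences were -0.01, -0.06 and 0.03, against 0.02, -0.05 and 0.02 for all transcripts. The pathway genes as a whole were therefore centred near the rest of each table. TE differences of single pathway genes come from group means and are given without their spread between libraries.

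*Akap5*, which encodes an anchor that holds calcineurin and protein kinase A at synapses, had the widest TE differences of the pathway. In the GS LRRK2 TG table its RNA-Seq mean was 4048 normalized reads in control and 1793 in transgenic mice, with footprints of 4504 and 4680. Its RNA-Seq mean was 3509 in control and 7256 in GS/DA LRRK2 TG mice, with footprints of 5495 and 5631. In the group means the footprints of *Akap5* were thus close to control in both. Its RNA was lower in GS LRRK2 TG (log2 change -1.18) and higher in GS/DA LRRK2 TG mice (1.05). Between RNA-Seq libraries of one group, the median size of the log2 difference over all transcripts was 0.98 in non-TG control and 1.18 in either transgenic group. The RNA changes of *Akap5* are thus not shown to be larger than that spread. Its TE differences were 1.23 in GS LRRK2 TG and -1.01 in GS/DA LRRK2 TG mice, with controls from the same labelled group, and 0.05 in LRRK2 KO mice. *Slc17a7* RNA also stood lower in GS LRRK2 TG (log2 change -0.92) and higher in GS/DA LRRK2 TG mice (1.17), and its part in the *Akap5* values was not tested.

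*Nrgn*, which encodes a protein that binds calmodulin when calcium is low, had a TE difference of 0.40 in GS LRRK2 TG mice (z of 1.62). Its RNA-Seq mean was 7546 normalized reads in control and 5813 in transgenic mice, with footprints of 14522 and 14784. In the group means the footprints of *Nrgn* were thus close to control and its RNA was lower (log2 change -0.38). In GS/DA LRRK2 TG and LRRK2 KO mice its TE differences, -0.28 and 0.05, were not past the cutoff.

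Among phosphatases that act on CaM kinases, the 2 genes listed stood on opposite sides in LRRK2 KO mice. *Ppm1e* had a TE difference of 0.61 (z of 2.17) and *Ppm1f* one of -0.57 (z of -2.16). Targets past the cutoff in LRRK2 KO mice were *Creb1* (0.76), which encodes the transcription factor that CaMKIV phosphorylates, *Mef2c* (0.62) and, downward, *Bad* (-0.42). *Mef2c* is also 1 of the cortical markers. The scaffold gene *Shank3* had -0.39 in LRRK2 KO mice. In GS LRRK2 TG mice *Crtc3*, which encodes a CREB coactivator that calcineurin activates, had -0.28, and in GS/DA LRRK2 TG mice *Camk1*, another CaM kinase, had 0.24.

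Members shared little in base composition or 5′UTR folding. The lowest predicted folding energy of the 5′UTR over isoforms was -240.7 kcal/mol for *Camk2g*, -203.3 for *Camk4*, -128.2 for *Camk2b*, -94.9 for *Ppp3r1*, -74.6 for *Camkk1*, -50.1 for *Ppp3cb* and -33.9 for *Ppp3ca*. The median of the LRRK2 KO table was -90.4 kcal/mol, so the members lay on both sides of it. Among the 3 members with the highest TE, *Camk4* had a strongly folded and *Ppp3ca* a weakly folded 5′UTR. The GC content of the CDS was 41.3% for *Ppp3r1* and 43.2% for *Ppp3cb*, at the 2.47 and 5.77 percentiles of the LRRK2 KO table, whose median was 52.8%. *Camk2b*, at 58.2%, was at the 80.9 percentile.

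Footprints are short, so reads from stretches that paralogs share may be counted for either gene or lost. CDS windows of 28 nt were compared with the full sequences of all annotated protein-coding transcripts, untranslated regions included, allowing for 1 mismatch. *Camk2b* shared 40 of 1974 windows with another gene (2.03%), mostly with *Camk2g*, and *Camk2g* shared 47 of 1563 (3.01%). *Ppp3r1* shared 6 of 486 (1.23%, with *Ppp3r2*), *Ppp3ca* 12 of 1539 (0.780%, with *Ppp3cc*) and *Ppp3cb* 4 of 1551 (0.258%). *Camk4* and *Camkk1* shared 0. The sequences thus set most of each CDS apart from its paralogs at this length. The run that *Camk2b* and *Camk2g* have exactly in common is printed because it is where a footprint cannot be assigned between these CaMKII genes. It spans 29 nt, CDS positions 313 to 341 of both genes, at chr11:5897886-5897914 and chr14:21589286-21589314 of NCBIM37 (mm9), minus strand, within a single exon of each.
Camk2b and Camk2g: agagagtactacagtgaagctgatgccag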

How the data were processed

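The authors deposited, for each comparison, a signal without an SD: the mean over the libraries of a group of CDS reads divided by DESeq size factors, 1 value per group and assay. The authors also deposited the 5′UTR folding energy, in kcal/mol, the lowest over isoforms, a value of another kind ("other") taken from a UCSC mm9 table. Their deposited TE, TE differences and z scores were not used. The submitters' processing notes name CASAVA 1.8, TopHat2 2.0.11, Bowtie2 2.2.2, DESeq 1.20 and mm9. The study's methods describe counting over the union of isoforms and a read minimum.

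TE was computed with a pseudocount of 0, and z scores used each table's own mean and SD of TE differences, with a cutoff of 1.5. Single libraries were recovered from the means, after a test on simulated data, and 98.7% to 100.0% of transcripts had 1 solution per column. The sum of recovered reads gives each library's depth in the CDS. limma 3.58.1 in R 4.3.3 was fitted to the log2 of normalized reads plus 10 for GS/DA LRRK2 TG and LRRK2 KO, 2-sided, with genotype per assay or with the interaction of genotype and assay, and p-values were adjusted by Benjamini-Hochberg over all transcripts. The GS LRRK2 TG table had no such fit, since its control means could not be taken apart, and transcripts with several solutions were left out. The NCBIM37 annotation gave GC content and CDS lengths and was matched for 97.1% of transcripts in the transgenic tables and 97.0% in the LRRK2 KO table. A total over a marker list is the sum over its recovered genes.

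Genes named are the 10 members, *Lrrk2* and genes of the pathway lists described that are past the z cutoff. Other genes named (*Camk2n1*, *Ppp3cc* and the cell type markers) are from the lists and were chosen after their values were seen. Members and lists were chosen with earlier results of these data known. The pathway lists described cover calmodulin-binding buffers, other calmodulin-dependent kinases, CaMKII inhibitors, CaM kinase phosphatases, other calcineurin subunits, calcineurin regulators, CaMKII scaffold partners and targets. The marker lists described cover spiny, cortical and dopamine neurons, interneurons, astrocytes, oligodendrocytes, microglia and choroid plexus. Alternatives covered the cutoff, centre, filter, pseudocount, GC content, single libraries, library pairs and CDS length.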

Additional observations from a re-analysis of the deposited data

How the results depend on the processing

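By mouse or replicate, no paired analysis was possible because group means carry no replicate numbers. The block for library pairs used pairs read from the values. Footprinting and RNA-Seq libraries shared lysates, which the TE fits do not use, since which ones did is not given for the means. The count of members past a z of 1.5 in size was 0 in GS LRRK2 TG mice, but 2 of 7 (*Ppp3ca* and *Ppp3r1*) at a cutoff of 1, which 28.5% of all transcripts passed, and 1 (*Ppp3r1*) with the median and scaled MAD (15.6% of all), and 1 and 1 where only transcripts with means above 2 or 4 times the read minimum were kept (11.8% and 11.2%). In GS/DA LRRK2 TG mice it was 0 under each alternative run. The choices of single libraries covered only 4 members there, without *Camk2b*, *Ppp3ca* and *Ppp3r1*. In LRRK2 KO mice it was 1 (*Ppp3r1*), but 3 of 7 at a cutoff of 1 (29.1% of all), 0 at a cutoff of 2 (5.07%), 0 with GC content corrected (12.3%), and 0, 2 (*Camk4* and *Ppp3r1*), 0 and 1 (*Camk4*) for the 4 choices of single libraries (between 11.6% and 12.5%). Transcripts called by limma for footprints, 0 as reported, came to 23 in GS/DA LRRK2 TG and 15 in LRRK2 KO mice with a block for library pairs, and those for RNA to 11 in LRRK2 KO mice. Both LRRK2 KO counts come from a fit with 1 variance for all transcripts. Leaving out 1 library gave 2 to 27 for GS/DA LRRK2 TG footprints, on the assumption that a lone library varies like the other group, and 0 for the other tests. No member was among the calls. Over members' TE differences, 68 of 114 alternative values moved by less than the spread between libraries, or by under 0.1 where that is not known, and 45 by more. Of all 114, 31 took the other sign, and 1 of these belongs to a TE difference past the cutoff: *Ppp3r1* in LRRK2 KO mice, -0.13 with one choice of single libraries. The cause was not tested. With the longest CDS the calcineurin A to B ratio moved by less than 0.1 in 12 of 12 group means, and by footprints of GS/DA LRRK2 TG mice it went from 0.992 to 1.00. limma alternatives for GS LRRK2 TG were not run, because its control libraries were not recovered. Counts from single libraries, single GS LRRK2 TG libraries, GC-corrected TE differences and the longest CDS were chosen after seeing the data. The number of libraries limits every test here.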

Other observations

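Astrocyte markers, 6 of 6 listed, had log2 changes of their summed footprints of 0.08 in GS LRRK2 TG, 0.13 in GS/DA LRRK2 TG and 0.05 in LRRK2 KO mice, and interneuron markers, 6 of 6, had 0.07, -0.01 and -0.03 in the same order. Microglia markers, 5 of 7 listed in the transgenic and 6 in the LRRK2 KO table, had 0.08, 0.13 and 0.18. *Ddc*, the single dopamine neuron marker listed of 4, had 0.51, 0.18 and -0.51.

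*Ttr*, the single choroid plexus marker listed of 4, had footprinting means of 3944 normalized reads in control and 722.9 in GS LRRK2 TG mice, and of 9125 in control and 3149 in GS/DA LRRK2 TG mice. In the latter comparison its libraries gave 1193 and 17057 in control and 5162 and 1137 in transgenic mice, which overlapped. In single footprinting libraries of the LRRK2 KO table, microglia markers summed to 707.1 and 115.9 in WT and to 812.1 and 120.3 in LRRK2 KO. Libraries of the same group were thus farther apart in these markers than the genotypes. The pathway lists without a gene past the z cutoff in any comparison were the CaMKII inhibitors, with 1 of 2 listed in the transgenic and 2 in the LRRK2 KO table, and the other calcineurin subunits, with *Ppp3cc* listed. *Camk2n1*, which encodes a CaMKII inhibitor, had TE differences of 0.03, -0.09 and -0.30 in the same order, and *Ppp3cc* had 0.11, -0.08 and -0.25.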
